A study of Mus musculus with 4 samples.

Results

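The promoters of the nuclear genes for the oxidative phosphorylation (OXPHOS) machinery were examined in an ATAC-seq comparison of mouse mesenchymal stem cells (MSCs) kept in hypoxia or moved to normoxia. The labels call them bone-marrow MSCs, and by the methods of the study they were grown out of collagenase-treated bone chips. ATAC-seq uses the Tn5 transposase to insert adapters into open DNA, so that the reads over a region measure its accessibility. The 84 protein-coding genes were chosen by name, and covered the Ndufa, Ndufb, Ndufc, Ndufs and Ndufv genes of complex I, Sdha to Sdhd of complex II, the Uqcr genes of complex III, Cox4 to Cox8 of complex IV and the Atp5 genes of complex V. A member was a peak within 1 kb of a GENCODE M21 start site of such a gene. These were 90 of 17661 promoter peaks and of 128055 peaks in all, and belonged to 81 of the 84 genes. No member peak was found for Cox6a2, Cox7b2 and Cox8c, which are isoforms of complex IV subunits best known from muscle and testis. The cells came from wild-type male C57BL/6N mice of 3 to 5 months. All were first grown at 2% O2 and sorted as CD45-/Ter119-/Sca-1+/CD140a+ cells. The 2 hypoxia libraries came from cells returned to 2% O2, and the 2 normoxia libraries from cells kept at 21% O2 for a week. The labels number the libraries 1 and 2 in each group and do not say which animals or cultures they came from. The study describes its ATAC-seq as 2 biologically independent experiments. With 2 libraries in each group, p-values measure the spread between these libraries only.

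The respiratory chain passes electrons from NADH through complex I, or from succinate through complex II, to complex III, cytochrome c and complex IV, where oxygen is reduced, and the proton gradient that results drives ATP synthesis by complex V. Most subunits are encoded in the nucleus and have to be made in step with the few encoded in mitochondrial DNA. NRF1, the ETS factor GABP, YY1, the estrogen-related receptors and the PGC-1 coactivators are known to act on many of these promoters, and hypoxia-inducible factor is known to act on some of them, such as those of Ndufa4l2 and Cox4i2.

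The promoter stretches below were taken from RefSeq windows (build GRCm38.p6) and are shown because they carry the motifs compared later and belong to genes with and without a called change. Each runs 5′ to 3′ on the strand of the gene over the 150 bases before the start site, and each lay inside the strongest peak of its gene. Capitals mark matches on either strand to GCGCATGC (NRF1), CCGGAAG (ETS family), AAGATGGC (YY1) or ACGTG (HIF). The stretch of Ndufa6 (chr15:82354292-82354441, minus strand) holds an NRF1 match, that of Atp5e (chr2:174464102-174464251, minus strand) an ETS match, and that of Ndufb3 (chr1:58586247-58586396, plus strand) none, and all 3 genes had a peak called lower in normoxia.
Ndufa6: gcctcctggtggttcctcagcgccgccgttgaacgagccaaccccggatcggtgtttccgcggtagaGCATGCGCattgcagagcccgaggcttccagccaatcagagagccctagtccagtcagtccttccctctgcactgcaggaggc
Atp5e: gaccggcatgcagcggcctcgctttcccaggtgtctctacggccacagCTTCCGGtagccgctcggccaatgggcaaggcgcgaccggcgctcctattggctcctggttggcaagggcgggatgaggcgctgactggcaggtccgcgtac
Ndufb3: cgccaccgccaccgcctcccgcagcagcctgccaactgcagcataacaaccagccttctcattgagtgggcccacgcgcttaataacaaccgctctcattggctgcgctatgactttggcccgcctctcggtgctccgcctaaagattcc

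The stretches of Atp5g2 (chr15:102671048-102671197, minus strand) and Sdhb (chr4:140961121-140961270, plus strand) hold NRF1 matches, and those of Atp5g1 (chr11:96075632-96075781, minus strand) and Sdha (chr13:74350241-74350390, minus strand) hold HIF matches. None of these 4 genes had a called peak.
Atp5g2: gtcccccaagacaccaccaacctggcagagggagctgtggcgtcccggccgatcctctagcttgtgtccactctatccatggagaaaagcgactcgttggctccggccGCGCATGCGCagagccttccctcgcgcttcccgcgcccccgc
Sdhb: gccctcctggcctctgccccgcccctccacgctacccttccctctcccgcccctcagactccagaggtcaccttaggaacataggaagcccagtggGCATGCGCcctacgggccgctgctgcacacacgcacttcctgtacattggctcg
Atp5g1: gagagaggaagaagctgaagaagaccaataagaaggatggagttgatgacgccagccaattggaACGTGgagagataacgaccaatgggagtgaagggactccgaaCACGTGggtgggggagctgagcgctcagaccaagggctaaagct
Sdha: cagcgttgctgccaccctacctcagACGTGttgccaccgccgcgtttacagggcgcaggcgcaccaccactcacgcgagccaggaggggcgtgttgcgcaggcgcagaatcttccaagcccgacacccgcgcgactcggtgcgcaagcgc

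The deposited value of a peak was its reads divided by the library total, times a constant. Library totals recovered from the values lay between 26680936 and 29965523 reads, and nuclear peaks held 49.2% and 53.2% of them in hypoxia but 31.0% and 35.2% in normoxia. This share moved with the condition, and its part in the changes described here was not tested. Values were therefore divided by relative log expression (RLE) size factors, and these are called scaled values. A peak was called lower or higher in normoxia where the two-sided limma test on log2(scaled value + 1) gave a false discovery rate (FDR) under 0.01 over all peaks. All 8 MSC marker genes had promoter peaks, with summed scaled values of 923 to 991 in hypoxia and 763 to 770 in normoxia. Of 8 blood markers 3 had one (summed 105 to 111 in hypoxia and 114 to 123 in normoxia), of 5 erythroid markers 2 (72.3 to 92.0 and 74.5 to 84.7) and of 5 endothelial markers 3 (78.6 to 81.7 and 72.2 to 85.1). Ptprc, Gata1 and Cdh5, which define blood, erythroid and endothelial cells, had none. In bulk samples, fewer cells of a type and less accessibility per cell cannot be told apart.

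OXPHOS promoters were less accessible in normoxia, to about the degree seen at promoters in general. The 2 normoxia libraries had median scaled values of 57.9 and 65.3 over the 90 peaks, against 78.3 and 74.1 in the hypoxia libraries. The log2 fold change (normoxia minus hypoxia) was negative for 81 of the 90 peaks, with a median of -0.32 and a range of -1.27 to 0.32. Among the 90, 5 peaks (5.56%, against 6.64% of promoter peaks) were assigned to hypoxia only in the peak set. They were listed through the group where they are high, so their negative sign is not a finding. The counts and medians given here include them. The median was -0.27 over the 17571 promoter peaks of other genes and -0.0040 over all peaks. Limma called 14 of the 90 peaks lower (15.6%), where 4.57% of all peaks and 16.7% of promoter peaks were called lower. It called none higher, where 1.77% of all peaks were called higher. At an unadjusted p under 0.05, 42 peaks were lower and 1 was higher, where 16.8% and 12.5% of all peaks were. EdgeR on the recovered reads called 18 lower, where it called 5.7% of all peaks and 20% of promoter peaks lower, and 0 higher, where it called 2.54% of all peaks higher.

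In 68 of the 90 peaks (75.6%) both normoxia values were under both hypoxia values on the scaled values, against 29.6% of all peaks and 60.3% of promoter peaks. In 3 peaks both lay above, against 27.4% of all peaks. The calls depended on single libraries. Without hypoxia replicate 1 or without hypoxia replicate 2 limma called 0 members lower, but also 0.0% of all peaks, so that these fits say nothing of the members. At an unadjusted p under 0.05 they held 24 and 29 members, where 18.8% and 19.0% of all peaks passed. Limma called 8 members lower without normoxia replicate 1 and 24 without normoxia replicate 2, where 3.78% and 6.35% of all peaks were called lower. The median log2 fold change stayed between -0.35 and -0.28 over these 4 fits.

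**Figure D1:**
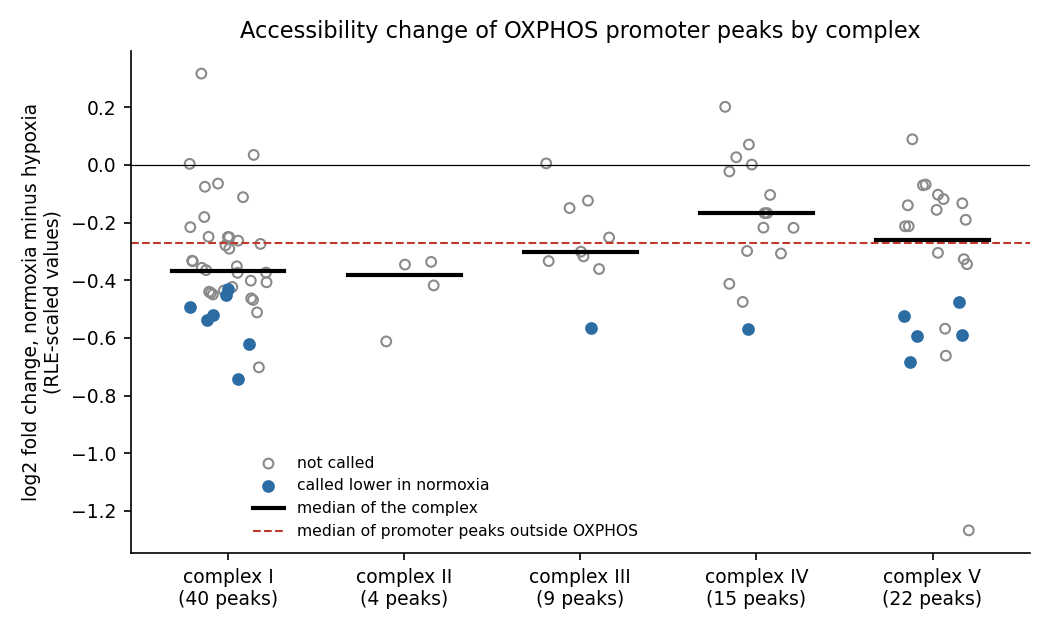
The log2 fold change of each of the 90 peaks (RLE-scaled values, normoxia minus hypoxia) is plotted by complex, with filled points for the 14 peaks called lower, a bar at the median of each complex and a dashed line at the median of promoter peaks of other genes (-0.27). The medians of complexes I, II and III lie below the dashed line, and those of complexes IV (-0.17) and V (-0.26) above it.

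Part of this change went with peak strength. Among promoter peaks of other genes the median log2 fold change was -0.037 in a bin with a median value of 23.7, -0.30 at 72.9 and -0.41 at 311, so that decreases were larger at stronger promoters over this range. Each OXPHOS peak was therefore set against the promoter peaks of its own bin of mean value (50 bins). The difference had a median of -0.045, and 50 of the 90 peaks lay below their bin's median and 40 above. The median was -0.016 without normoxia replicate 1, -0.013 in bins that also used GC content and 0.017 in bins that also used peak width, so that its sign was not stable. Single peaks departed further, from -0.57 for Ndufb3 to 0.75 for a shoulder peak of Atp5e with few reads. In the weakest quartile of the members 1 of 23 peaks was called lower (4.35%), and in the strongest quartile 7 of 23 (30.4%). Of promoter peaks of all strengths 16.7% were, and the share among promoters of like strength is not given here. All 23 peaks of the strongest quartile had a negative log2 fold change. Their median difference from equal promoters was 0.061, a smaller decrease than at those promoters.

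**Figure D2:**
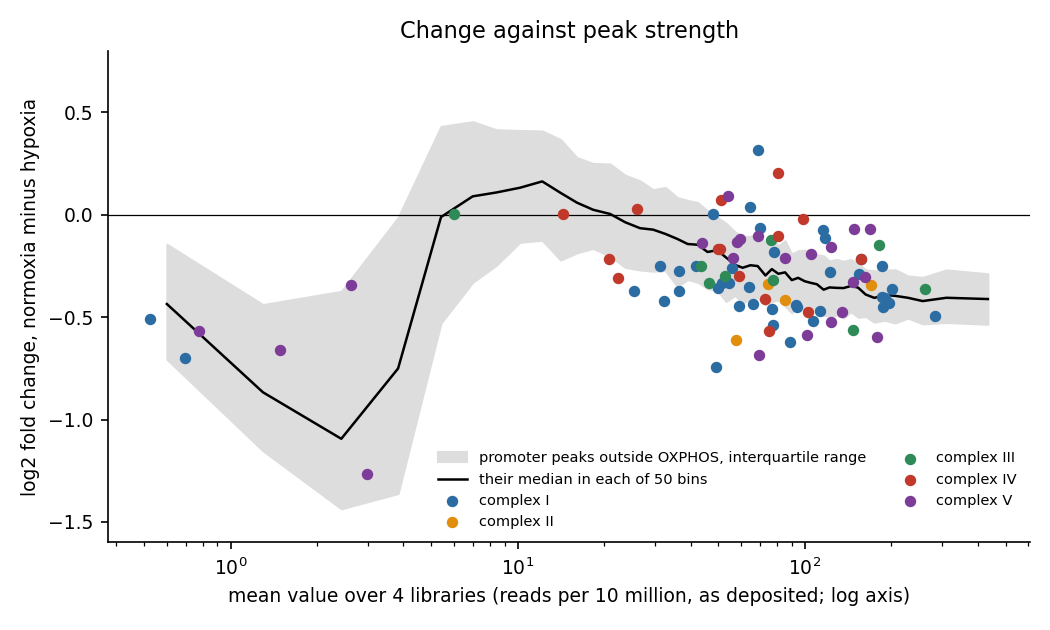
The log2 fold change of each OXPHOS peak (points, coloured by complex) is plotted against its mean deposited value over the 4 libraries on a log axis, with the median (line) and the interquartile range (band) of promoter peaks of other genes in 50 bins. The points lie on both sides of the line, 50 below it and 40 above.

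The complexes differed in their medians. Complex I (40 peaks of 37 genes) had a median log2 fold change of -0.37 and complex II (4 peaks) of -0.38, followed by complex III with -0.30 (9 peaks), complex V with -0.26 (22 peaks) and complex IV with -0.17 (15 peaks). Measured from promoters of equal value, the order was complex I (-0.10), II (-0.088), III (-0.051), IV (0.0066) and V (0.077). Both normoxia values were under both hypoxia values in 35 of 40 peaks of complex I, 4 of 4 of complex II, 8 of 9 of complex III, 6 of 15 of complex IV and 15 of 22 of complex V. Over all peaks this share was 29.6%, and over promoter peaks it was 60.3%. These medians and counts include the 5 peaks assigned to hypoxia only, whose negative sign is not a finding. They were shoulders of Ndufa4 and Ndufb5 in complex I, and of Atp5c1, Atp5e and Atp5g3 in complex V. Those of complex V had log2 fold changes of -0.57, -1.27 and -0.66, and lower its median. Within a complex the peaks spread widely, with a standard deviation of log2 fold changes of 0.20 in complex I and 0.21 in complex IV, where the median standard error of a single peak was 0.14 and 0.15. Complexes were not tested against each other, since the peaks of a complex share their 4 libraries.

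Complex I takes electrons from NADH, and 7 of its 40 peaks were called lower (17.5%, against 4.57% of all peaks and 16.7% of promoter peaks). Of the 7 peaks, 5 were at genes for accessory subunits. The lowest among the full-sized peaks was that of Ndufb3, an accessory subunit of the membrane arm (chr1:58585301-58587100), with scaled values of 59.6 and 57.3 in hypoxia against 33.3 and 35.8 in normoxia. The log2 fold change was -0.74 ± 0.16 (SE; limma, adjusted p = 0.00212), and the groups were well apart. Ndufb6, of the same arm, had 104 and 101 in hypoxia against 61.1 and 71.6 in normoxia, a log2 fold change of -0.62 ± 0.14 (limma, adjusted p = 0.00225). The peaks of Ndufa2, Ndufa6 and Ndufb5, also accessory subunits, had log2 fold changes of -0.52, -0.45 and -0.43. The peak of Ndufb5 was the strongest per length of all 81 genes, with an RPKM (reads divided by the length of the peak and by the library total) of 12.6 and 12.9 in hypoxia against 6.05 and 7.59 in normoxia.

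The core subunits of complex I bind NADH and carry the flavin and iron-sulfur centres, and behaved less uniformly. Their 8 peaks had a median log2 fold change of -0.22, and 2 were called lower, against a median of -0.39 and 5 calls over the other 32 peaks. Relative to promoters of equal value the medians were 0.076 for the core and -0.13 for the others. Ndufs1, which carries iron-sulfur centres, was called lower, with 82.0 and 93.0 in hypoxia against 57.4 and 62.5 in normoxia, a log2 fold change of -0.54 ± 0.14 (limma, adjusted p = 0.00922). In contrast, Ndufv1, which holds the flavin and the NADH site, had 71.4 and 55.1 in hypoxia against 65.7 and 62.9 in normoxia, and the normoxia values lay between the hypoxia ones (log2 fold change 0.035 ± 0.15).

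Ndufv2, the partner of Ndufv1, had 2 peaks with opposite signs. The stronger peak (chr17:66100601-66102800), over the start sites of most of its transcripts, had a log2 fold change of -0.29 ± 0.12. The other (chr17:66090201-66093900) lies over the start site of a shorter transcript inside the gene, and had the highest log2 fold change of all members, 0.32 ± 0.15. Its scaled values were 54.9 and 67.3 in hypoxia against 75.4 and 76.5 in normoxia, with no overlap. Neither peak was called (limma, adjusted p = 0.111 and 0.138).

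Complex II, succinate dehydrogenase, also works in the tricarboxylic acid cycle. None of its 4 peaks was called by limma, although all 4 had an unadjusted p under 0.05, and edgeR called 1 of them, that of Sdha. Sdha, the flavoprotein that oxidises succinate, had 69.8 and 62.3 in hypoxia against 36.6 and 50.1 in normoxia, with a log2 fold change of -0.61 ± 0.16 (limma, adjusted p = 0.0102). Sdhb, the iron-sulfur subunit, had 180 and 188 against 137 and 153, with a log2 fold change of -0.35 ± 0.11. Sdhc and Sdhd, the membrane anchors, had log2 fold changes of -0.34 and -0.42. The groups did not overlap in any of the 4.

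Of the 9 peaks of complex III, which passes electrons from ubiquinol to cytochrome c, 1 was called lower (11.1%, against 16.7% of promoter peaks). It belonged to Uqcrc2, a core protein without a redox centre, with 160 and 172 in hypoxia against 93.0 and 134 in normoxia (log2 fold change -0.57 ± 0.13; limma, adjusted p = 0.00449). The normoxia libraries differed from each other here more than the hypoxia libraries did. Its partner Uqcrc1 had 51.1 and 48.7 in hypoxia against 41.7 and 37.3 in normoxia at the main peak, with a log2 fold change of -0.33 ± 0.16, and 0.0054 ± 0.35 at a weaker peak that began 184 bp from a start site. Uqcrfs1, the Rieske iron-sulfur protein, had 51.1 and 41.5 against 40.3 and 36.9, a log2 fold change of -0.25 ± 0.17 that was not called (limma, adjusted p = 0.335).

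Complex IV, cytochrome c oxidase, uses the oxygen itself, and 1 of its 15 peaks was called lower (6.67%, against 16.7% of promoter peaks). Its median of -0.17 was the smallest decrease of the 5 complexes on the scaled values, but after cyclic loess (-0.049 against -0.0014) and relative to promoters of equal value complex V lay above it. Without normoxia replicate 1 the median of complex IV was -0.083. The called peak belonged to Cox6b2, an isoform best known from testis, with 93.9 and 78.1 in hypoxia against 50.4 and 65.2 in normoxia (log2 fold change -0.57 ± 0.15; limma, adjusted p = 0.00947). Its widely expressed counterpart Cox6b1 had 51.8 and 50.9 against 54.2 and 38.4, so that the groups overlapped (log2 fold change -0.17 ± 0.17). Cox5a, which lies on the matrix side, had 99.8 and 96.1 in hypoxia against 99.0 and 93.8 in normoxia, with a log2 fold change of -0.022 ± 0.13.

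The Cox4i1 and Cox4i2 pair encodes alternative forms of a regulatory subunit, of which Cox4i2 is known to be used at low oxygen. The Cox4i1 peak had 77.3 and 72.3 in hypoxia against 82.4 and 90.0 in normoxia, the highest log2 fold change of the complex (0.20 ± 0.14), and the normoxia values lay above the hypoxia ones. It also covers the start of Emc8, so that the peak cannot be given to Cox4i1 alone. The Cox4i2 peak had 15.9 and 12.5 against 13.9 and 14.3, and the groups overlapped (0.0014 ± 0.25). Neither was called (limma, adjusted p = 0.336 and 0.998).

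In the pairs of heart and muscle forms with widely expressed forms, no peak was called. Cox7a1, the form of heart and muscle, had a log2 fold change of -0.31 ± 0.23 and Cox7a2 of -0.10 ± 0.14. Cox7a1 had 24.6 and 22.7 in hypoxia against 14.8 and 24.1 in normoxia, so that its value rested on normoxia replicate 1, and without that library it was 0.033. Cox8b had 0.071 ± 0.17 and Cox8a -0.22 ± 0.12. Cox6a1 and Cox7b, whose partners had no member peak, had -0.17 ± 0.16 and 0.027 ± 0.20.

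Ndufa4 was named as a complex I gene and is now known as a subunit associated with complex IV, and Ndufa4l2 is its paralog, a known target of hypoxia-inducible factor. The main peak of Ndufa4 had 209 and 206 in hypoxia against 141 and 173 in normoxia, with a log2 fold change of -0.41 ± 0.11 that limma did not call (adjusted p = 0.0152) and edgeR did (adjusted p = 0.00999). The peak of Ndufa4l2 had 211 and 181 against 174 and 155, with a log2 fold change of -0.25 ± 0.11 (limma, adjusted p = 0.14). Both normoxia values were under both hypoxia values for each gene.

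**Figure D3:**
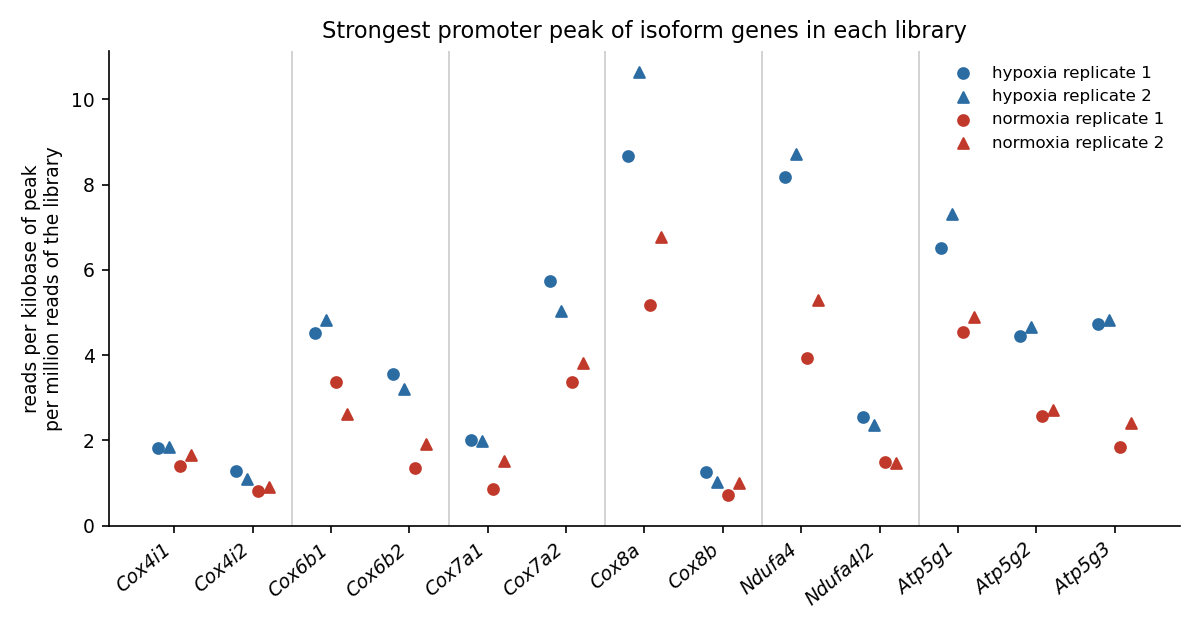
The per-length level (RPKM, on library totals without RLE scaling) of the strongest promoter peak of 13 isoform genes is plotted for each of the 4 libraries, hypoxia in blue and normoxia in red. The normoxia points lie below the hypoxia points on this unscaled level, for example 5.17 and 6.77 against 8.67 and 10.6 for Cox8a, and Cox4i1, Cox4i2 and Cox8b have low levels throughout.

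Complex V, the ATP synthase, had 5 of its 22 peaks called lower (22.7%, against 16.7% of promoter peaks). Of these, 1 belonged to the catalytic F1 part, 3 to the membrane part and stalk, and 1 to Atp5s, an associated factor. Atp5j, a stalk subunit, had the lowest p of all members, with 199 and 208 in hypoxia against 130 and 139 in normoxia (log2 fold change -0.59 ± 0.11; limma, adjusted p = 0.000567). Its peak (chr16:84833801-84836600) also covers the start of Gabpa on the other strand, the gene for the DNA-binding subunit of GABP. Atp5e, the epsilon subunit of F1, had 118 and 116 in hypoxia against 69.9 and 85.5 in normoxia (log2 fold change -0.59 ± 0.13; limma, adjusted p = 0.00294). Atp5f1, subunit b of the stalk, and Atp5s had log2 fold changes of -0.48 ± 0.12 and -0.52 ± 0.13.

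The alpha and beta subunits of F1, which carry the catalytic sites, were not called. Atp5b, the beta subunit, had 112 and 107 in hypoxia against 95.3 and 96.4 in normoxia (log2 fold change -0.19 ± 0.13), and Atp5a1, the alpha subunit, had 68.6 and 70.6 against 62.5 and 67.0 (-0.10 ± 0.14). The groups did not overlap in either gene. Atp5k, a small membrane subunit, had the highest value of the complex, 0.089 ± 0.15.

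Atp5g1, Atp5g2 and Atp5g3 encode the same mature c subunit of the rotor, and their promoters had unequal values. Atp5g3 had 83.2 and 78.3 in hypoxia against 45.8 and 54.2 in normoxia, and was called lower (log2 fold change -0.69 ± 0.15; limma, adjusted p = 0.00188). Atp5g2 had 177 and 171 against 143 and 138 (-0.30 ± 0.11; adjusted p = 0.0647), and Atp5g1 had 166 and 173 against 163 and 160 (-0.068 ± 0.11; adjusted p = 0.734). The difference between the genes was not tested.

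More than 1 member peak was found for 7 genes, often a narrow shoulder beside a wide peak. Narrow shoulders under 500 bp made up 6 of the 90 peaks, held few reads, and none was called by limma or edgeR, with 1 of them at an unadjusted p under 0.05. The lowest log2 fold change of all members, -1.27 ± 0.49, came from such a 300-bp shoulder of Atp5e, assigned to hypoxia only. Its scaled values were 6.55 and 2.22 in hypoxia against 1.39 and 0.753 in normoxia. Without these 6 peaks the median was -0.30 and the 14 calls were kept in number. At the 1 kb limit, the outermost members were shoulders of Ndufa4 (993 bp, log2 fold change -0.51) and Ndufb5 (990 bp, -0.70), and the nearest peaks left out lay by Cox7a1 (1244 bp, -0.11) and Cox6a2 (1614 bp, 0.079).

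Levels were compared between genes per length of peak, as RPKM averaged over the 4 libraries. The strongest peaks of the 81 genes ranged from 1.001 for Cox8b to 9.79 for Ndufb5. After Ndufb5 came Cox8a (7.81), Ndufa6 (7.21) and Ndufv2 (7.03), and next to Cox8b at the low end came Cox4i2 (1.02), Atp5k (1.17) and Cox6c (1.29). By complex, the median over the strongest peaks was 4.22 and 4.40 under hypoxia, and 2.15 and 2.70 under normoxia, for complex I, and 3.04 and 2.96 against 1.87 and 2.08 for complex IV. The strongest peak of each gene held at least 30 reads in every library, with medians of 265 and 295 in hypoxia against 135 and 187 in normoxia.

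Many OXPHOS promoters were shared with a neighbouring gene. Start sites of another protein-coding gene lay inside 32 of the 90 peaks (35.6%), against 1420 of the 17571 promoter peaks of other genes (8.08%). Of the 14 peaks called lower, 8 were of this kind, and their neighbours included Fam126b (Ndufb3), Eef1b2 (Ndufs1), Ik (Ndufa2), Mrpl47 (Ndufb5), Gabpa (Atp5j) and Wdr77 (Atp5f1). The 32 shared peaks had a median log2 fold change of -0.41 with 8 calls (25.0%), and the other 58 a median of -0.27 with 6 calls (10.3%). Among promoter peaks of other genes the medians were -0.33 for shared and -0.26 for the rest. Of these, 28.0% of the shared peaks and 15.7% of the rest were called lower, so that neither OXPHOS share was above its counterpart. Relative to promoters of equal value, the OXPHOS medians were -0.089 for shared and 0.0066 for the other peaks. ATAC-seq reads over such a peak cannot be assigned to either gene.

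RefSeq windows from 250 bases before to 50 after the start site were matched to 66 of the 84 genes, of which 65 had a peak, and were searched on both strands. The NRF1 motif GCGCATGC was found in 10 of the 65 windows (15.4%), against 4.88% of 11695 windows of other genes with a promoter peak, 5.64% at equal mean value and 3.75% of all 16515 windows. The YY1 motif AAGATGGC was found in 8 windows (12.3%, against 4.78% at equal value and 3.26% of all), 7 of them of complex I, and the ERR motif AAGGTCA in 8 (12.3%, against 3.29% and 3.94%). All 8 YY1 matches lay after the start site, as did 50.3% of YY1 matches in windows of other genes. The ETS motif CCGGAAG was found in 15 windows (23.1%, against 17.8% and 12.3%) and the SP motif GGGCGGG in 21 (32.3%, against 46.6% and 35.2%). None of the 9 motifs contains another. The HIF core ACGTG occurred at 24.6% against 25.0% at equal value and 21.0% of all windows. Ndufa4l2 and Cox4i2, named above as known HIF targets, were not among the 65 windows.

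The remaining motifs were CREB, TGACGTCA, found in 6.15% of the OXPHOS windows (3.38% at equal value, 2.41% of all), NF-Y, CCAAT, in 43.1% (37.1% and 38.8%), and the TATA box, TATAAA, in 9.23% (7.13% and 12.8%). The median log2 fold change was -0.32 for the 10 genes with an NRF1 match and -0.31 for those without, -0.34 and -0.31 for YY1, -0.21 and -0.33 for ETS, and -0.23 and -0.33 for HIF. For other genes the medians with and without a match were -0.31 and -0.29 for NRF1 and -0.27 and -0.29 for YY1. They were -0.32 and -0.28 for ETS, and -0.30 and -0.28 for HIF. None of these differences was tested. Of the 8 called genes with a window, 5 had an SP match, 5 an NF-Y match, 2 an ETS match and 2 an ERR match. An NRF1 match was found in 1, a HIF match in 1, and a YY1, CREB or TATA match in 0. These counts were not tested against the shares of the OXPHOS windows given above. A match is a string of letters and does not show binding.

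**Figure D4:**
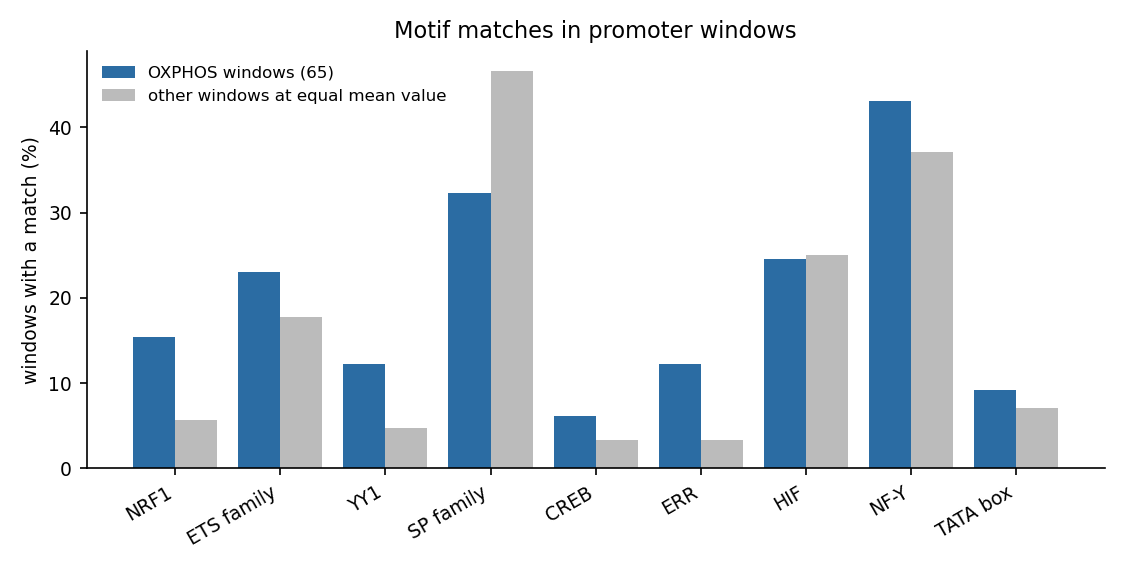
The share of promoter windows with a match to each of 9 motifs is plotted for the 65 OXPHOS windows (blue) and for windows of other genes at equal mean value (grey). NRF1 (15.4% against 5.64%), YY1 (12.3% against 4.78%) and ERR (12.3% against 3.29%) matches were more frequent in the OXPHOS windows, and SP matches (32.3% against 46.6%) less frequent.

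Genes that work with OXPHOS subunits were taken as lists, and the peaks named here were chosen after their values were seen. Beside the counts below, 4.57% of all peaks and 16.7% of promoter peaks were called lower. The lists were not tested against these shares. Of 14 complex I assembly factors, with 18 promoter peaks, 5 peaks were called lower and 0 higher, among them Ndufaf4 (log2 fold change -0.58) and Foxred1 (-0.49), which help build complex I. Of 20 complex IV assembly factors, with 21 peaks, 6 were called lower, among them Pet117 (-0.71), Cox11 (-0.59) and Coa6 (-0.51). Their median was -0.36, where the structural genes of complex IV had -0.17, and relative to promoters of equal value the medians were 0.031 and 0.0066. The complex II assembly factors had 1 of 5 peaks called lower (Sdhaf2, -0.49), and those of complex III (6 peaks) and complex V (4 peaks) had 0 called by limma or edgeR, with 1 peak in each at an unadjusted p under 0.05. Cycs, which encodes the mobile carrier cytochrome c, was called lower at its main peak (-0.52; limma, adjusted p = 0.00457), while Cyc1, cytochrome c1 of complex III, had 0.23 ± 0.17 and was not called.

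Among 12 regulators of mitochondrial genes, with 13 peaks, 3 were called lower. These were the peak of Gabpa shared with Atp5j, and those of Tfb1m (-0.42) and Tfb2m (-0.57), which act in mitochondrial ribosome assembly and transcription. Nrf1 had -0.16 ± 0.14 and Yy1 -0.33 ± 0.10, and neither was called. Ppargc1a, the PGC-1alpha coactivator, had 0.15 ± 0.15 and 0.43 ± 0.15 at its 2 peaks, and neither was called (limma, adjusted p = 0.53 and 0.0532). On the scaled values both normoxia libraries lay above both hypoxia libraries at each, as in 27.4% of all peaks and 1818 of 17661 promoter peaks. As deposited its log2 fold changes were -0.32 and -0.035. Of 6 genes of respiratory remodelling at low oxygen 2 were called lower, Bnip3, a mitophagy receptor (-0.57), and Lonp1, a matrix protease (-0.63). The tricarboxylic acid cycle genes had 5 of 19 peaks called lower (26.3%). Among them were a weaker peak of Pdha1 (-1.23), whose main peak was not called, and Fh1, fumarase (-0.64). The glycolysis genes had 7 of 24 (29.2%), among them Ldha, Pgk1 and Gapdh (-0.51, -0.54 and -0.39). Limma and edgeR called no peak of these lists higher, and 1 peak, of Ppargc1a, was higher at an unadjusted p under 0.05. Relative to promoters of equal value, the medians were 0.091 for the regulators, 0.065 for the remodelling genes, -0.019 for the tricarboxylic acid cycle and 0.010 for glycolysis. For the assembly factors of complexes I, II, III and V they were -0.018, -0.13, 0.091 and 0.083.

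The cytosolic and mitochondrial ribosomal protein genes are further large groups of housekeeping genes. Their promoter peaks had medians of -0.34 (90 peaks, 11 called lower, 12.2%) and -0.29 (84 peaks, 14 called lower, 16.7%), beside -0.32 and 15.6% for OXPHOS. Relative to promoters of equal value the medians were -0.022 and 0.0055, beside -0.045 for OXPHOS and 0.010 for glycolysis. These groups were not tested against each other.

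The size of the decrease followed the scaling. On the values as deposited the 90 peaks had a median log2 fold change of -0.77, 72 were called lower where 24.0% of all peaks and 60.6% of promoter peaks were, and the median of all peaks was itself -0.44. In 88 of the 90 the groups had no overlap, with normoxia lower, as in 59.5% of all peaks and 86.1% of promoter peaks. After cyclic loess, which scales each library as a function of strength, the median was -0.11 and 0 were called lower by limma, where 1.31% of all peaks were. At an unadjusted p under 0.05 in either direction there were 19, where 22.6% of all peaks passed. With the total over all peaks set equal, the median of all peaks moved to 0.26 and that of OXPHOS to -0.034, with 0 called lower and 2 called higher, Cox4i1 (0.49) and the inner peak of Ndufv2 (0.60). Of all peaks 0.842% were called lower and 6.87% higher under this scaling.

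**Figure D5:**
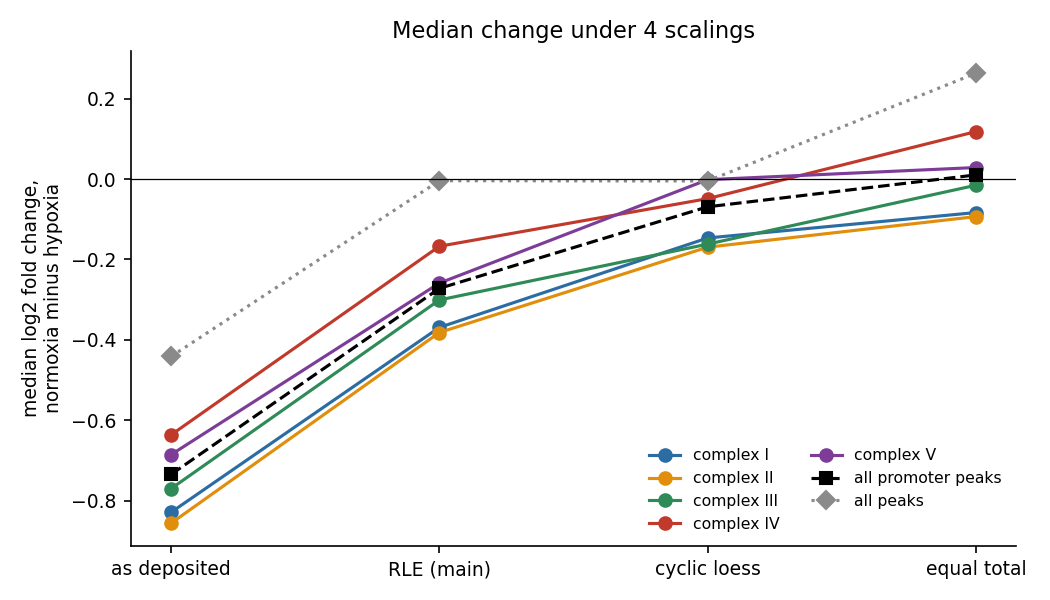
The median log2 fold change of each complex, of all promoter peaks and of all peaks is plotted under 4 scalings: as deposited, RLE, cyclic loess and equal total over peaks. Complex IV stays above complexes I, II and III under all 4 (for example -0.64 against -0.83, -0.86 and -0.77 as deposited), while the sign of complexes IV (0.12) and V (0.029) changes under equal total.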

How the data were processed

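The authors aligned ATAC-seq reads to mm10 with Bowtie2, removed duplicates with Picard and called 1 peak set over both groups with chromstaR. The deposited signal, called RPKM by the authors, ignores peak width. Every value (100%) was a whole multiple, within 0.01, of what 1 read was worth in its library, and this gave the reads of each peak and the library totals. Whether these count fragments or read ends is not given in the sources used here.

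Signal values were divided by RLE size factors (1.13 and 1.23 in hypoxia, 0.810 and 0.886 in normoxia) and tested as log2(value + 1) with limma 3.58.1 under R 4.3.3 (lmFit and eBayes, trend and robust on, two-sided, Benjamini-Hochberg adjustment over all peaks). The log2(value + 1) scale understates changes of low peaks. Since the reads were recovered from scaled values, edgeR 4.0.16 (glmQLFit) was an alternative. In a test on simulated data, with 200 of 128055 peaks changed between 2 libraries and 2, limma recovered 95% of 4-fold and 49% of 2-fold changes with 0 false calls. The changed peaks were drawn from stronger peaks only, with as many raised as lowered. All called members changed by less than 2-fold, so this recovery does not measure how well such changes are found. An exact permutation test of 2 libraries against 2 cannot give a two-sided p under 0.333, so none was used. The labels give no batch. Standard errors are those of limma, and levels per length are RPKM on library totals.

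The members and gene lists were chosen with earlier results of these data known. Peaks named were those of the central subunits, of isoform pairs, the lowest and highest log2 fold change and the lowest p of each complex, and the 12 called peaks of lowest p. Some items under this rule are not reported here. Alternatives changed the scaling (no scaling, equal total, cyclic loess), the pseudocount (0.1 or 5), the filter (mean value of at least 5), the threshold (FDR under 0.05) or the test (eBayes without trend and robust estimation, edgeR). Others were leaving out each library, a replicate block, start sites within 500 bp or at the 5′ end of the gene only, the strongest peak of each gene only, and bins that also used GC content or peak width. Leaving out narrow or shared peaks was added after seeing the data.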

Additional observations from a re-analysis of the deposited data

How the results depend on the processing

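The calls depended on the scaling and on single libraries. With values as deposited 72 peaks were called lower and the median log2 fold change was -0.77 (complexes I to V: -0.83, -0.86, -0.77, -0.64 and -0.69). With equal totals 0 were called lower and 2 higher, the median was -0.034, the medians of complexes I, II and III were -0.083, -0.093 and -0.015, and those of complexes IV (0.12) and V (0.029) reversed. After cyclic loess 0 were called, the median was -0.11, and the medians of complexes I to V were -0.15, -0.17, -0.16, -0.049 and -0.0014. A pseudocount of 0.1 gave 9 calls, an FDR under 0.05 gave 29 (where 9.68% of all peaks were called lower), eBayes without trend and robust estimation gave 0 (as over all peaks, with 16 members at an unadjusted p under 0.05), and leaving out peaks that hold another gene's start gave 6. Leaving out each library in turn gave 0 to 24 calls, where a lone library was assumed to vary like the other group. A pseudocount of 5, a minimum mean value of 5 and edgeR gave 15, 18 and 18 calls, each including the 14. The difference from promoters of equal value was -0.045, lay between -0.0375 and -0.0156 (without normoxia replicate 1) with a library left out, turned to 0.017 in bins that also used peak width, and was -0.013 in bins that also used GC content. The causes of these shifts were not tested.

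The replicate numbers are not known to pair libraries. The correlation of deviations between libraries of the same number was 0.011 over all peaks, and with 2 pairs it decides nothing. A fit with a replicate block gave 20 calls, including the 14, and the same median of -0.32.

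Log2 fold changes of uncalled named peaks changed sign as follows. As deposited they were -0.45 for Cox4i2, -0.38 for Atp5k, -0.40 for Cox8b, -0.27 for Cox4i1, -0.40 for the weaker Uqcrc1 peak, -0.15 for the inner Ndufv2 peak, -0.44 for Ndufv1 and -0.43 for Cox7b. With equal totals they were 0.12 for Cox6a1, 0.12 for Cox6b1, 0.27 for Cox5a, 0.18 for Cox7a2, 0.040 for Ndufa4l2, 0.098 for Atp5b, 0.22 for Atp5g1, 0.033 for Uqcrfs1, 0.18 for Atp5a1 and 0.071 for Cox8a. After cyclic loess they were -0.17 for Cox4i2, 0.23 for Cox5a, 0.11 for Cox7a2, -0.16 for the weaker Uqcrc1 peak, 0.10 for Ndufa4l2, 0.070 for Atp5b, 0.27 for Atp5g1, 0.025 for Atp5g2, 0.082 for Atp5a1, 0.11 for Cox8a and -0.0032 for Cox7b. Cox4i2 was -0.0004 with a pseudocount of 5 and -0.0003 with edgeR. Over the 4 fits that left out a library, the ranges were -0.17 to 0.16 for Cox4i2, -0.056 to 0.021 for Cox5a, -0.40 to 0.079 for Cox6b1, -0.64 to 0.033 for Cox7a1, -0.26 to 0.036 for Cox7a2, -0.13 to 0.19 for Cox7b, -0.15 to 0.27 for Cox8b, -0.16 to 0.21 for Ndufv1 and -0.20 to 0.19 for the weaker Uqcrc1 peak. Peaks with few reads and 2 libraries a group limit what can be resolved here.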
